A study of Homo sapiens with 6 samples.

Results

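The 8 genes EPCAM, CD24, PROM2, MPZL2, MAL2, MALL, RAB25 and TMEM45B, which code for epithelial surface proteins and for proteins of apical membrane transport, were followed through 6 messenger RNA libraries. They were taken by symbol from the 21463 genes in the deposited gene tables, and all 8 were found. The members were chosen by function with the resistant-to-parental values of these libraries known, so those values are given as a description, with no test. The libraries come from 3 established lines of human lung carcinoma (non-small cell type), all with mutant EGFR. HCC827 and PC9 (both labelled E19Del) were each sequenced untreated and as a gefitinib-selected subline, HCC827-GR and PC9-GR. H1975 (L858R/T790M) was sequenced untreated and as an osimertinib-selected subline, H1975-OR. Gefitinib and osimertinib inhibit the EGFR kinase. Per the labels, the dose was stepped up during 90 days of selection; IC50 values ran from 0.016 to 0.07 µM in the untreated lines and from 4.288 to 12.485 µM in the sublines. Every group shares an activating EGFR mutation, and each line has 1 library per state, so a ratio within a line has no replicate.

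In a polarised epithelium the plasma membrane is divided into an apical domain that faces the lumen and a basolateral domain that faces neighbouring cells and matrix. EpCAM (the product of EPCAM), CD24 and MPZL2 are cell surface proteins, and prominin 2 (PROM2) sits in membrane protrusions. MAL2 and MALL belong to the MAL family of membrane proteins of lipid rafts, and MAL2 acts in transcytosis to the apical surface. RAB25 is an epithelial relative of the RAB11 GTPases of recycling endosomes, which hand cargo to the motor myosin Vb. Loss of EpCAM and of other epithelial surface proteins is a textbook feature of epithelial-mesenchymal transition.

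The libraries held 21222102 to 29366085 exon reads, of which 90.8% to 91.7% mapped uniquely; at least 99.96% of the reads of every member in every library did so. Read counts were scaled by library size and TMM factors to CPM, and a count of 0 allowed up to 0.0985 to 0.145 CPM, depending on the library. Floors and intervals cover counting error only. The keratins KRT7, KRT8, KRT18 and KRT19 were at 74.9 CPM or more in every library, but some were lower beside the members: KRT8 was at 4082 and 944 CPM and KRT18 at 3277 and 757 CPM in parental and resistant HCC827, and KRT19 at 316 and 74.9 CPM in H1975. CDH1 (E-cadherin) was at 467 and 22.1 CPM in HCC827 and at 22.4 and 0.131 CPM in H1975, and the lung lineage factor NKX2-1 was at 0.0969 and 0.252 CPM in the PC9 libraries. Of 8 blood cell markers, the globin gene HBB and otherwise leukocyte genes, 3 reached 10 CPM in some library. The summed level of the 8 was 52.0 to 141 CPM in parental and 125 to 197 CPM in resistant libraries. CD68, a lysosomal gene, made up most of it; PTPRC (CD45) stayed at or under 0.419 CPM and MS4A1 had no read. Fibroblast markers (2 of 7 reached 10 CPM) summed to 15.03 to 92.4 CPM in parental and 18.8 to 219 CPM in resistant libraries, and endothelial markers (1 of 4) to 1.46 to 20.2 and 1.05 to 5.94 CPM. The part of these markers in the results was not tested. In bulk libraries, fewer cells that express a gene and less RNA per cell cannot be told apart.

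Among the parental libraries, the members were high in HCC827 and PC9 and low in H1975, except CD24, which was lowest in PC9. On the TPM scale, which corrects for transcript length and depth, EPCAM was the most abundant member in parental HCC827 (474 TPM, with CD24 next at 462 TPM) and in parental PC9 (830 TPM, followed by MAL2 at 326 TPM). In parental H1975 the order differed: CD24 stood first at 95.5 TPM, EPCAM followed at 37.7 TPM, and RAB25 came last at 1.24 TPM. The EPCAM level in CPM was 16.3-fold higher in parental HCC827 than in parental H1975 (95% counting interval 15.02 to 17.7), and that of MAL2 was 20.2-fold higher (18.3 to 22.4). The RAB25 ratio of the same libraries was 98.2 (53.2 to 205) and rested on 10 reads in H1975. The other members were 2.08-fold (MPZL2) to 6.27-fold (CD24) higher in parental HCC827 than in parental H1975. PC9 and H1975 differed by 2.73-fold (MALL) or more in 7 members, with PC9 higher, whereas CD24 was lower in PC9, at 0.554 of the H1975 level.

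**Figure D1:**
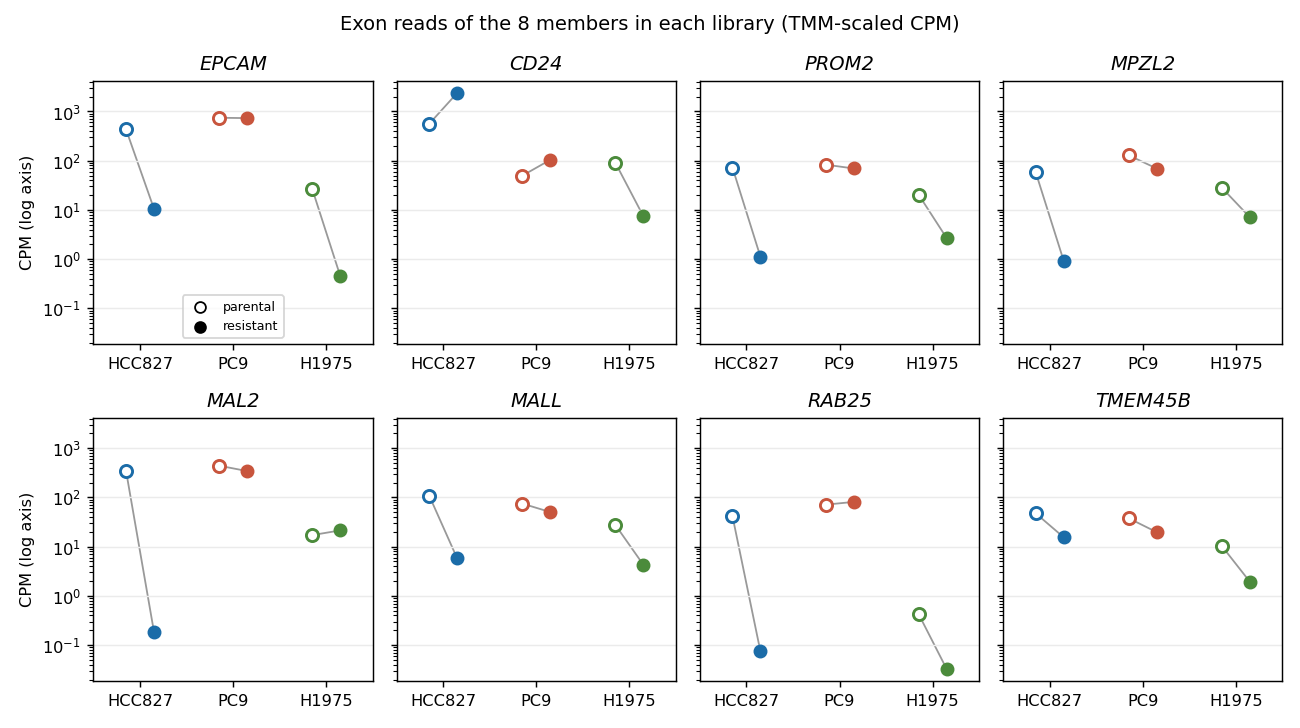
Each panel plots 1 member, with TMM-scaled CPM on a log axis against the cell line; open circles are parental and filled circles resistant libraries, 1 library each, joined within a line. EPCAM, PROM2, MPZL2, MALL and TMEM45B lie lower in the resistant library of every line, from −0.03 to −5.23 on the log2 scale, while CD24 lies higher in HCC827 and PC9 and lower in H1975.

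The resistant sublines parted by line. In HCC827, 7 of the 8 members were at least 2-fold lower in the resistant library and CD24 was at least 2-fold higher; of all 10298 genes with at least 10 CPM in an HCC827 library, 7.65% lay that far below and 10.5% that far above their parental level, 18.1% in all. The excess of higher genes in HCC827 (1078 against 788) was 943 against 941 with library-size scaling only and 809 against 784 on TPM. In H1975, 6 of the 7 members with at least 10 CPM were at least 2-fold lower and none higher, where 3.22% of 9940 genes were lower and 1.76% higher (4.98% in all). In PC9, none of the 8 was at least 2-fold lower (1.72% of 9911 genes were) and CD24 was at least 2-fold higher (2.42% of genes were; 4.14% in all). A member that reaches 10 CPM only where it is high had to differ, and the list was drawn up on these ratios, so the counts carry no weight as evidence. The median log2 ratio of the 8 members was −5.03 in HCC827, −0.31 in PC9 and −2.18 in H1975, beside −0.01, −0.02 and 0.06 for all genes counted in each line. Here and below, 1 CPM was added to each level before a log2 ratio, and nothing before a fold change.

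In all 3 lines 5 members, EPCAM, PROM2, MPZL2, MALL and TMEM45B, were lower in the resistant library. The EPCAM log2 ratio in PC9 was only −0.03, beside a median of −0.02 for all genes counted, and its counting interval included a ratio of 1. Of the 11481 genes with at least 10 CPM in some library, 13.6% were lower in all 3. For none of the 8 did the 3 parental levels stand clear of the 3 resistant ones, whereas 2.03% of the genes did so. Drug, EGFR mutation and cell line cannot be told apart in this design.

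**Figure D2:**
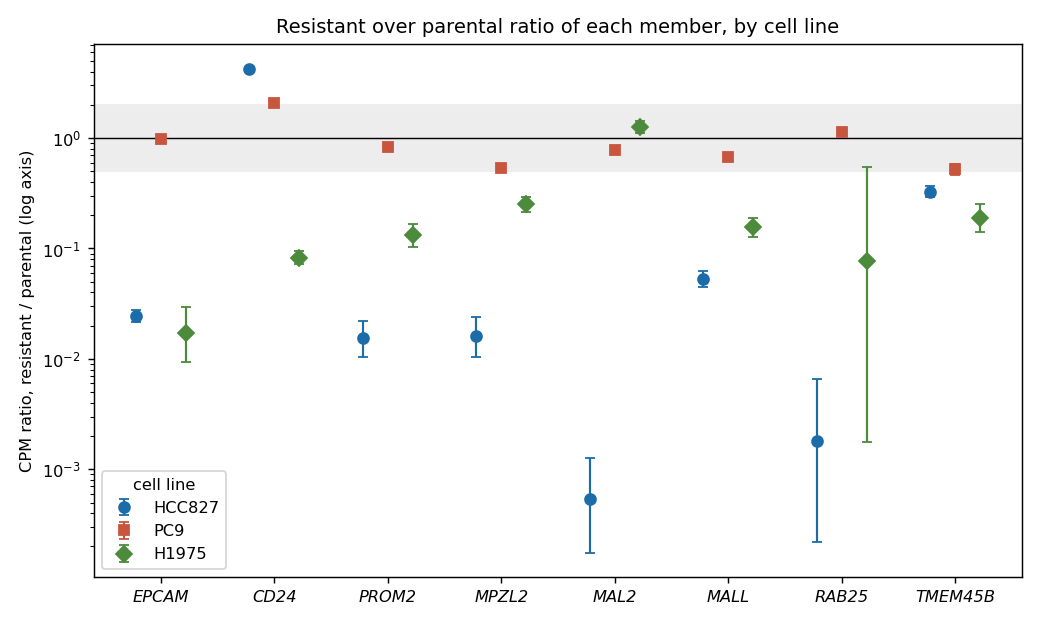
The resistant-to-parental CPM ratio of each member is plotted on a log axis by cell line, with 95% exact binomial counting intervals; the grey band marks changes under 2-fold. In HCC827 the ratios run from 0.000541 for MAL2 to 4.22 for CD24, and in PC9 from 0.523 for TMEM45B to 2.10 for CD24.

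Among the surface proteins, EPCAM (ENSG00000119888, hg38 chromosome 2, 47345158 to 47387601), a homophilic adhesion molecule of simple epithelia, had the steepest difference in H1975. It was at 432 CPM in parental against 10.6 in resistant HCC827, at 745 against 732 in PC9 and at 26.6 against 0.460 in H1975. The resistant library was lower 40.9-fold in HCC827 (95% counting interval 36.3 to 46.2) and 57.8-fold in H1975 (34.2 to 106, on 14 resistant reads). The PC9 ratio of 0.983 (0.962 to 1.004) was close to 1. Only 4 of 9940 genes had a lower log2 ratio than EPCAM in H1975. By TPM, EPCAM stood at rank 141 of all 21463 genes in PC9-GR, at rank 7726 in HCC827-GR and at rank 12690 in H1975-OR.

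CD24 (ENSG00000272398, hg38 chromosome 6, 106969831 to 106975627), a small heavily glycosylated protein held by a lipid anchor, was higher in HCC827-GR and PC9-GR and lower in H1975-OR. Its level was 563 CPM in parental and 2372 CPM in resistant HCC827, 49.7 and 104 CPM in PC9, and 89.8 and 7.42 CPM in H1975. The ratio was 4.22 (4.14 to 4.29) in HCC827 and 2.10 (1.95 to 2.26) in PC9, and H1975-OR was 12.1-fold lower than its parent (10.5 to 13.9). With 1844 TPM, CD24 was the 69th most abundant gene of the resistant HCC827 library, in which MAL2 and RAB25 were nearly absent. Reads that span an exon-exon junction were 3.54% to 6.14% of the CD24 exon reads, depending on the library. They went the same way, with 845 and 3703 in HCC827, 63 and 148 in PC9, and 100 and 8 in H1975. Their ratios were 4.51 (4.18 to 4.86), 2.03 (1.504 to 2.78) and 0.0619 (0.0260 to 0.127).

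PROM2 (ENSG00000155066, hg38 chromosome 2, 95274453 to 95291308), a pentaspan protein of plasma membrane protrusions, was at 72.6, 83.2 and 20.3 CPM in parental HCC827, PC9 and H1975. In the resistant libraries it was at 1.12, 69.6 and 2.69 CPM. HCC827-GR was 64.5-fold lower than its parent (45.1 to 95.9) and H1975-OR 7.55-fold lower (5.96 to 9.66), against 1.195-fold in PC9-GR (1.12 to 1.28). The immunoglobulin-domain adhesion gene MPZL2 (ENSG00000149573, hg38 chromosome 11, 118253403 to 118264536) followed with 58.5, 128 and 28.1 CPM in the parental and 0.937, 69.4 and 7.09 CPM in the resistant libraries. Its ratios were 62.4-fold lower in HCC827 (42.1 to 96.7), 1.85-fold lower in PC9 (1.74 to 1.97) and 3.97-fold lower in H1975 (3.40 to 4.65). In PC9 the log2 ratio of MPZL2 was −0.88, beside −0.03 for EPCAM and −0.25 for PROM2.

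Among the transport proteins, MAL2 (ENSG00000147676, hg38 chromosome 8, 119165034 to 119245673) was the member with the widest gap between lines. It was at 347 CPM in parental and 0.187 CPM in resistant HCC827, where 9509 reads stood against 5, 441 and 343 CPM in PC9, and 17.1 and 21.4 CPM in H1975. The HCC827 difference was 1849-fold (792 to 5695) and its log2 ratio of −8.19 was the lowest of the 10298 genes counted in that line. In H1975 the ratio was 1.25 (1.10 to 1.42), and MAL2 was the only one of the 7 counted members above its parental level there. None of the 5 reads left in HCC827-GR spanned an exon-exon junction, against 1413 junction reads in the parent.

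MALL (ENSG00000144063, hg38 chromosome 2, 110083870 to 110116566), a raft protein related to MAL2, was lower in the resistant library of each line. Its levels were 108 and 5.77 CPM in HCC827, 74.8 and 50.4 CPM in PC9 and 27.4 and 4.27 CPM in H1975. The resistant library was 18.7-fold lower in HCC827 (15.9 to 22.2), 1.48-fold lower in PC9 (1.38 to 1.602) and 6.41-fold lower in H1975 (5.30 to 7.80). In H1975, MALL and MAL2 thus lay on opposite sides of their parental levels.

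RAB25 (ENSG00000132698, hg38 chromosome 1, 156061160 to 156070514) had its reads almost wholly in parental HCC827 and both PC9 libraries. It was at 41.7 CPM in parental HCC827, at 71.2 and 80.9 CPM in parental and resistant PC9, and at 0.424 CPM in parental H1975. HCC827-GR held 2 RAB25 exon reads and H1975-OR 1, both under the level that a count of 0 allows. The HCC827 ratio was 556-fold (154 to 4597), and in H1975 10 reads against 1 gave 12.9-fold with an interval of 1.84 to 561, at a level too low for the 10 CPM minimum. PC9-GR was slightly above its parent in exon reads, with a ratio of 1.14 (1.06 to 1.22).

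TMEM45B (ENSG00000151715, hg38 chromosome 11, 129815819 to 129860003), a multi-pass membrane protein, had the most even difference over the lines. It was at 47.6 CPM in parental against 15.5 in resistant HCC827, at 37.6 against 19.7 in PC9 and at 10.2 against 1.94 in H1975. The resistant library was 3.07-fold (2.74 to 3.43), 1.91-fold (1.70 to 2.149) and 5.28-fold (3.96 to 7.14) lower. Its mean log2 ratio was −1.46 ± 0.52 (SD, n = 3 lines), while the SD of the other members ran from 1.73 for MALL to 4.73 for MAL2. In PC9, TMEM45B and MPZL2 had the lowest ratios of the 8, and 216 of 9911 genes had a lower log2 ratio than TMEM45B. Without HCC827 the mean log2 ratio was −0.03 for MAL2 and −0.14 for RAB25 in place of −2.75 and −1.86, and without H1975 that of CD24 was 1.56 in place of −0.10.

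Promoter sequence was read from RefSeq (GRCh38.p14) for the 4 members listed there: RAB25, PROM2, MALL and CD24. RAB25 and PROM2 are shown because they were nearly absent together in HCC827-GR, and CD24, from its outermost start, because it went the other way in the same library. Each line holds the 250 bases before the annotated start, 5′ to 3′ on the strand of the gene. Capitals mark matches, on either strand, to CACCTG, an E-box to which ZEB and SNAI repressors can bind, or to AACCTGTC, a word picked after the sequences were seen; no match overlapped another. RAB25 is chr1:156060910-156061159 (plus strand), PROM2 is chr2:95274199-95274448 (plus strand) and CD24 is chr6:106975628-106975877 (minus strand).
RAB25: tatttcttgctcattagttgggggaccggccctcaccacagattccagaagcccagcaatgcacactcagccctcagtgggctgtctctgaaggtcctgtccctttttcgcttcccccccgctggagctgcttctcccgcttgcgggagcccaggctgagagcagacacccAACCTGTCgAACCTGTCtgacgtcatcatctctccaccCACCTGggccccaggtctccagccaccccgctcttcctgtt
PROM2: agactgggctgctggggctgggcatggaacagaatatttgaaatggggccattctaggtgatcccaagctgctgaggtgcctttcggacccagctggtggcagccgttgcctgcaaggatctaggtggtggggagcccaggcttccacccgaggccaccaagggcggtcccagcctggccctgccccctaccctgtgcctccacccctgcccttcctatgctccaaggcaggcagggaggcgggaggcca
CD24: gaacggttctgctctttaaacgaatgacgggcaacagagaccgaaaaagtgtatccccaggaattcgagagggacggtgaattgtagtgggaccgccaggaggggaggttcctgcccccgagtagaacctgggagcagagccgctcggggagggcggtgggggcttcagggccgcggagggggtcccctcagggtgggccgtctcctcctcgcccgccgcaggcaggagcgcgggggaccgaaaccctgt
The RAB25 stretch holds 1 E-box, which begins 41 bases before the start, and AACCTGTC at 79 and at 70 bases before it. Another match to CACCTG lies within the 50 bases after the RAB25 start. PROM2 holds AACCTGTC beginning 17 bases after its start, in the site cccaAACCTGTCgggcaggtt, and neither word in the stretch above. The CD24 stretch shown holds neither, nor does that of the start at 106975465, while that of the start at 106974039 holds CACCTG, on the other strand, beginning 249 bases before it. MALL, which was also lower in HCC827-GR, holds neither word before either of its starts. CACCTG occurs in 17.5% of all 35116 such stretches and AACCTGTC in 0.552%. With the 50 bases after the start included, the shares are 20.6% and 0.669%. AACCGGTT, the consensus word of grainyhead-like factors, occurs in 0.117% of the stretches before the start and in none of the members' stretches. The stretches held 8 (RAB25), 5 (PROM2), 0 and 18 (MALL) and 17 to 27 (CD24) CpG dinucleotides, beside a median of 11 over all of them, so neither the words nor the CpG counts parted the lower members from CD24. A match says only that these letters are present.

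Intron reads of the members, a second readout of the same libraries, were few (1 to 391 per library). In HCC827, intron reads went from 259 to 13 for EPCAM, from 123 to 2 for PROM2 and for MAL2, from 87 to 1 for RAB25 and from 120 to 391 for CD24. The ratios of TMEM45B in that line were close for both kinds of read, 0.304 (0.224 to 0.407) for introns and 0.326 (0.291 to 0.364) for exons. In H1975 the intron ratio of EPCAM was 0.179 (0.0601 to 0.444), above the exon ratio of 0.0173 (0.00941 to 0.0293), and that of TMEM45B was 0.645 (0.3997 to 1.03), above 0.189 (0.140 to 0.253). In PC9 the intron ratio lay below the exon ratio for MAL2, 0.398 (0.313 to 0.504) beside 0.778 (0.755 to 0.802), and for CD24, 0.649 (0.332 to 1.25) beside 2.10. The same held for MPZL2, 0.371 (0.289 to 0.473) beside 0.541, RAB25, 0.761 (0.618 to 0.937) beside 1.14, and MALL, 0.433 (0.253 to 0.720) beside 0.673. For EPCAM, PROM2 and TMEM45B the PC9 intron ratios of 0.953, 0.857 and 0.526 were close to the exon ratios of 0.983, 0.837 and 0.523. Over all genes, the share of intron reads was 7.01% for parental PC9 and 5.79% for PC9-GR. It was 5.96% for parental HCC827 and 5.70% for HCC827-GR. The H1975 shares were the largest, at 9.36% for the parent and 9.20% for H1975-OR. The share was thus lower in every subline, and by most in PC9-GR. The part of these shares in the intron ratios was not tested.

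**Figure D3:**
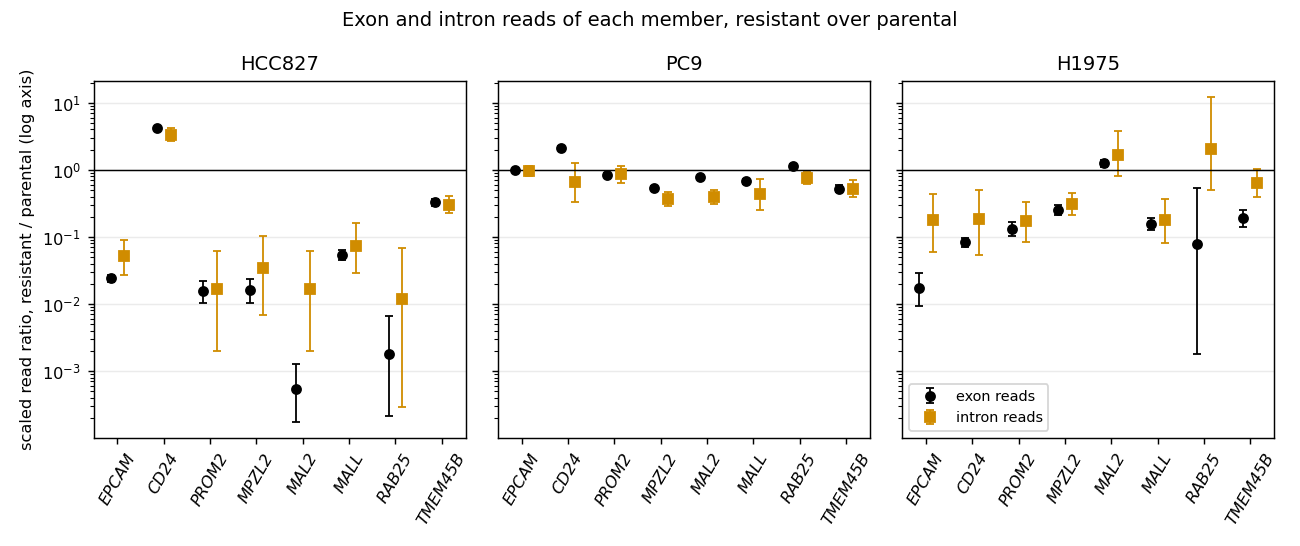
Ratios of resistant to parental reads, scaled as for CPM, are plotted on a log axis for the exon reads (black circles) and intron reads (yellow squares) of each member, 1 panel per line, with 95% exact binomial counting intervals. In PC9 the CD24 intron ratio of 0.649 lies under its exon ratio of 2.10, and in H1975 the EPCAM intron ratio of 0.179 lies above its exon ratio of 0.0173.

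Relatives of the members within their protein families were set beside them, as log2 ratios in the line order used above (HCC827 first, H1975 last). RAB11A, the widely expressed relative of RAB25, had −0.04, −0.09 and 0.01, and RAB11B had 0.55, −0.10 and 0.50. TMEM45A went opposite to TMEM45B in every line: its parental and resistant levels were 3.32 and 23.3 CPM in HCC827, 22.1 and 51.4 in PC9 and 9.93 and 19.5 in H1975. Its fitted log2 fold change was 1.65 ± 0.44 (SE, n = 3 lines), with an unadjusted p of 0.0149 and an adjusted p of 0.903 in edgeR's quasi-likelihood test. MPZL1, a relative of MPZL2, was likewise higher in each resistant library (1.17, 0.23 and 0.46), whereas MPZL3 had −1.77, −0.14 and −0.06. MAL, after which the MAL family is named, was high in the PC9 libraries alone, at 151 and 136 CPM, and had at most 3 reads in any other library. Plasmolipin (PLLP) had log2 ratios of 0.38, −0.03 and −0.07, and PROM1 stayed under 0.5 CPM in every library.

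**Figure D4:**
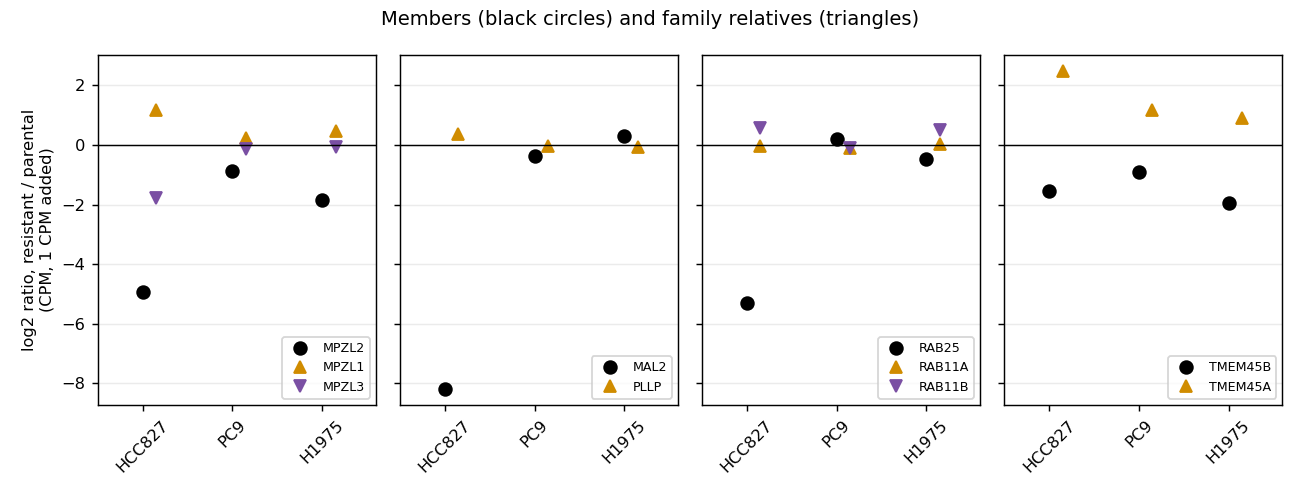
Log2 ratios of resistant to parental CPM (1 CPM added) are plotted by cell line for 4 members (black circles) and 6 of their family relatives (triangles). TMEM45A lies above 0 in each line, from 0.91 to 2.49, where TMEM45B lies below it, from −0.90 to −1.93.

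Over the 3 lines, edgeR called 0% of the 13541 genes tested (0 genes; 502 at an unadjusted p under 0.05), limma-voom called 0 (763) and DESeq2 58 (923), which is 0.428%. No gene of the lists that follow passed in edgeR, and the lists were also chosen with earlier results of these data known. Of 47 genes for apical transport and recycling, 45 were measured; 11 were lower and 5 higher in all 3 lines, where 13.6% of all genes with at least 10 CPM were lower and 14.3% higher in all 3. The ones with the largest mean difference were the sorting adaptor subunit AP1M2, the motor MYO5B, the recycling effector RAB11FIP4 and the secretory GTPase RAB27B, all lower in each resistant library. MYO5B, the motor of RAB11 and RAB25 vesicles, was at 65.2 CPM in parental against 3.22 in resistant HCC827, at 89.0 against 57.2 in PC9 and at 22.7 against 4.66 in H1975 (fitted log2 fold change −2.38 ± 0.79, edgeR adjusted p = 0.903). AP1M2, the epithelial medium chain of the AP-1 adaptor, was at 161 and 0.975 CPM in HCC827 and 116 and 106 in PC9, and had 36 reads against 0 in H1975. Its widely expressed counterpart AP1M1 had log2 ratios of 1.30, 0.11 and 0.31. RAB27B had −0.50, −1.83 and −2.25, so its smallest difference was in HCC827.

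Counted by line, the apical transport list was mostly within 2-fold. In HCC827, 9 of 44 counted genes of the list were at least 2-fold lower and 5 higher, with a median log2 ratio of −0.22. Of all genes counted in HCC827, 7.65% were lower and 10.5% higher. In PC9 it was 1 of 43 lower and 0 higher (median −0.02), beside 1.72% and 2.42% of all genes. In H1975 it was 4 of 40 lower and 0 higher (median 0.01), beside 3.22% and 1.76%. The 9 listed exocyst subunits ran from −0.64 to 0.61 over the lines. Of 29 genes for apical polarity and microvilli, 28 were measured, 6 lower and 3 higher in all 3 lines (13.6% and 14.3% of all genes), and the medians were −0.15, −0.03 and −0.10 in HCC827, PC9 and H1975. There the largest mean differences were those of MUC1, an apical mucin, the tight junction gene MARVELD3, the actin regulator EPS8L1 and villin (VIL1). In HCC827, MUC1 went from 146 to 1.09 CPM, MARVELD3 from 24.9 to 0.150 CPM and EPS8L1 from 32.5 to 0.225 CPM. VIL1 went from 432 reads to 0 there and had at most 4 reads in the PC9 and H1975 libraries. In PC9 the log2 ratios were −0.34 for MUC1, −0.28 for MARVELD3 and −0.003 for EPS8L1. In H1975, MUC1 went from 49.8 to 12.9 CPM, MARVELD3 had 10 reads against 2, and EPS8L1 was higher, with a log2 ratio of 0.26. Reads shared with similar sequence make some of these levels less certain: 83.5% of MUC1 reads mapped uniquely, 73.1% of MYO5B, 61.6% of MARVELD3 and 54.0% of VIL1 reads.

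Partners of EpCAM and the proteases that cut it were lower mostly in HCC827. CLDN7, the claudin that binds EpCAM, was at 369 CPM in parental against 36.1 in resistant HCC827, at 218 against 201 in PC9 and at 14.9 against 8.21 in H1975; 71.3% of its reads mapped uniquely. The matriptase gene ST14 had log2 ratios of −7.16, −0.61 and −1.86, its inhibitor SPINT1 −3.52, −0.10 and −2.38, and the tetraspanin TSPAN8 −4.47, 0.04 and −1.17. SPINT1 was called by DESeq2 (adjusted p = 0.0482) and not by edgeR (adjusted p = 0.903). The same held for ESRP1, of the epithelial factors below (DESeq2 adjusted p = 0.0397, edgeR adjusted p = 0.903). ADAM10, which sheds the EpCAM ectodomain, had 0.44, −0.46 and 0.04. Of 17 measured genes of the list, 5 were lower and 3 higher in all 3 lines (13.6% and 14.3% of all genes), and the medians were −0.12, −0.09 and 0.03.

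Raft and caveola genes, which code for the membrane domains where MALL and prominins reside, included genes that were higher in HCC827-GR. Of 11 measured, 3 were at least 2-fold higher and 0 lower in HCC827 (median 0.28), beside 10.5% and 7.65% of all genes. In PC9 0 of 10 counted were higher and 0 lower (median 0.15), beside 2.42% and 1.72% of all genes. In H1975 0 of 11 were higher and 1 lower (median −0.21), beside 1.76% and 3.22%. In HCC827 CAVIN2 was at 3.86 and 38.1 CPM, CAVIN1 at 187 and 642 CPM, and EHD2, a caveola neck ATPase, at 76.5 and 225 CPM. CAV1 itself had log2 ratios of 0.25, −0.30 and −0.56, and FLOT1 0.47, 0.25 and 0.50.

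Epithelial transcription and splicing factors were lower in HCC827-GR. In that line, 10 of 11 counted were at least 2-fold lower and 0 higher (median −3.15), beside 7.65% and 10.5% of all genes. In PC9 1 of 10 was lower (median −0.23), and in H1975 0 of 5 (median −0.03). Of all genes counted, 1.72% were lower in PC9 and 3.22% in H1975. The other listed factors, of 13, did not reach 10 CPM in H1975. GRHL2, a factor of epithelial junction genes, had 1650 reads against 0 in HCC827 and was at 96.1 and 102 CPM in PC9 and at 1.78 and 0.0328 CPM in H1975. GRHL1 had log2 ratios of −3.15, −0.33 and −0.65 and GRHL3 −2.35, −0.12 and 0.05. OVOL1 had −4.07, −0.05 and −0.19, OVOL2 −4.23, −0.31 and −0.12, ESRP2 −1.69, −0.22 and −0.03, and EHF −4.99, −0.66 and −0.97. Of the repressors of epithelial genes, ZEB1 was at 0.620 and 25.7 CPM in HCC827, 1.07 and 3.06 CPM in PC9 and 43.8 and 50.1 CPM in H1975. ZEB2 was at 0.219 and 32.4, 0.242 and 0.545, and 10.2 and 61.1 CPM in the same libraries. SNAI2 was at 3.32 and 28.2, 8.43 and 18.8, and 16.5 and 10.4 CPM, and so lower in H1975-OR. SNAI1 was lower in every resistant library, with log2 ratios of −1.17, −0.44 and −0.31. No repressor was called by edgeR (adjusted p = 0.903 for ZEB2). The 3 libraries with the lowest EPCAM, both H1975 libraries and HCC827-GR, were those with the highest ZEB2. That match was seen after the fact, and SNAI1 and SNAI2 did not order the libraries in this way. Any link between a repressor and EPCAM was not tested.

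**Figure D5:**
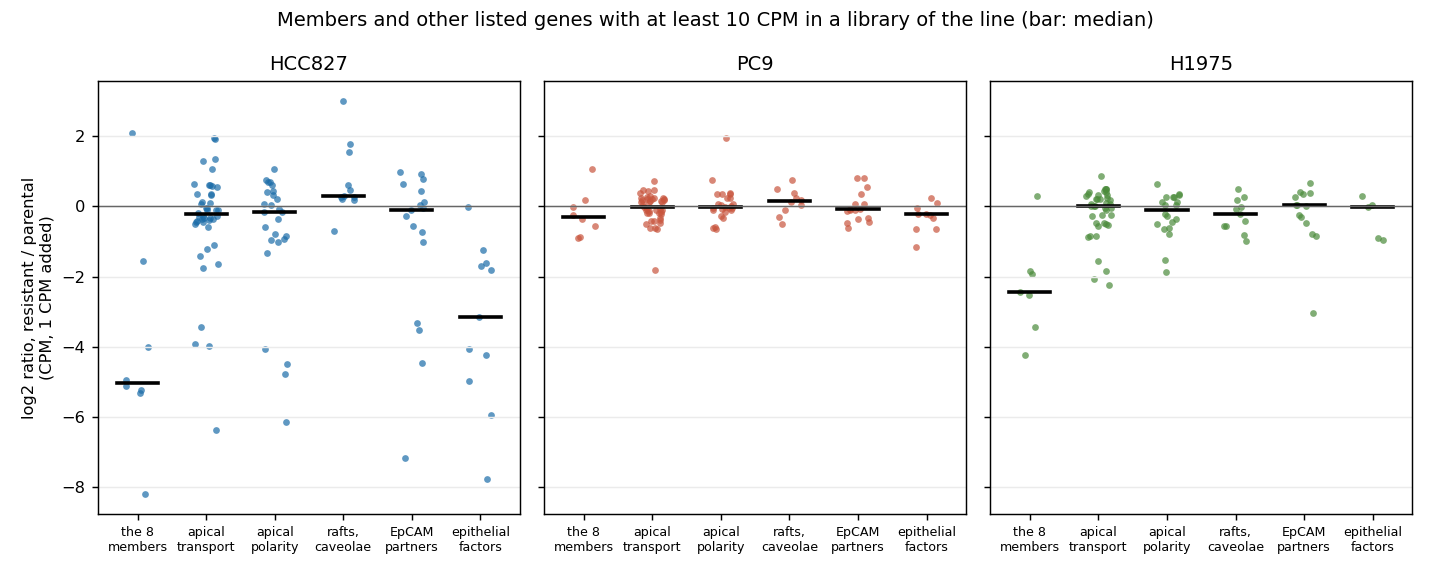
Log2 ratios of resistant to parental CPM (1 CPM added) are plotted for the members and 5 gene lists, 1 panel per line and 1 point per gene with at least 10 CPM in a library of that line; black bars are medians. The HCC827 median is −5.03 for the members and −3.15 for the epithelial factors, and lies between −0.22 and 0.28 for the other lists.

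The genes most like the members were sought among 2531 other genes with at least 10 CPM in a library and an SD of log2(CPM + 1) of at least 1, by Pearson's r with the members' mean profile over the 6 libraries. The values are descriptions, since the 6 libraries come in 3 related pairs. The 8 closest were SCEL (sciellin, of the cornified envelope; r = 0.995), ANK3 (ankyrin G, 0.994), ESRP1 (0.994), TMEM30B (0.993), ADGRF1 (0.991), NUP62CL (0.991), MYO1D (0.990) and ST14 (0.989). SCEL was at 83.2 and 2.21 CPM in HCC827, 72.3 and 50.6 in PC9, and 4.37 CPM against no read in H1975. ESRP1, an epithelial splicing factor, was at 257 and 0.187, 161 and 137, and 5.86 CPM against no read. Each member was also set against the mean of the other 7: r was 0.975 for EPCAM, 0.963 for MALL, 0.937 for PROM2, 0.934 for RAB25, 0.844 for TMEM45B, 0.835 for MPZL2 and 0.790 for MAL2, and −0.01 for CD24.

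Single members had different nearest genes. EPCAM was closest to CDS1, an enzyme of phosphatidylinositol synthesis (r = 0.999), and MYO1D (0.995), PROM2 to MYO5B (0.997) and IL18 (0.983), MPZL2 to DTX4 (0.997) and ZFP36L2 (0.993), and MALL to NUP62CL (0.985) and MYO5B (0.973). RAB25 was closest to TMC6 (r = 1.00) and OVOL1 (0.999), MAL2 to EPS8L1 (0.998) and the desmosomal PKP3 (0.993), and TMEM45B to CDH1 (0.977) and the tight junction gene CLDN4 (0.970). CD24 resembled none of these: its nearest were MGLL, a monoacylglycerol lipase (r = 0.992), at 303 and 715 CPM in HCC827, 52.7 and 73.1 in PC9 and 58.4 and 17.6 in H1975, and the oxidoreductase NXN (0.979). Among pairs of members, PROM2 and MPZL2 were most alike (r = 0.973), and CD24 and MAL2 least (−0.343).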

How the data were processed

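RNA of 6 libraries was sequenced from polyadenylated RNA with a stranded kit, per the labels' protocols. Reads were trimmed with Trimmomatic and aligned with Bowtie2 to hg38, per the submitters' processing notes; their versions are not given in sources used here. The deposited gene tables hold read counts (exon, uniquely mapped exon, intron and exon-exon junction reads) and TPM, per the file headers, both made by the authors. Genes that share sequence can exchange reads, so the uniquely mapped share is given where it is low.

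Exon counts were scaled to CPM with TMM factors (edgeR 4.0.16, R 4.3.3). Across the 3 lines, filterByExpr chose the genes, with about 10 reads in at least 3 libraries and 15 reads in total. These genes were tested with edgeR's quasi-likelihood test, with the cell line as a block and 2 residual degrees of freedom. Benjamini-Hochberg adjustment was used, with a threshold of 0.05. DESeq2 1.42.0 and limma-voom (limma 3.58.1) were alternatives. The pairing is by cell line, from the labels. With 1 library per line and state, p-values measure the spread between lines. Within a line, genes with at least 10 CPM in either library were counted at 2-fold, on log2 ratios with 1 CPM added. Ratios have 95% exact (Clopper-Pearson) intervals, and the level that a count of 0 allows is 3 counts. The test was tested on simulated data.

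The members and gene lists were chosen with earlier results of these data known. Named beside the members are listed family relatives, CLDN7, the GRHL, OVOL, ESRP and ZEB genes, and in each list up to 4 genes of largest mean log2 ratio among those with at least 10 CPM in a library; for likeness, the 8 genes nearest to the members' mean and the 2 nearest to each member. The exocyst, AP1M1, ADAM10, CAV1, the keratins and NKX2-1 were named after their values were seen. RefSeq promoter entries were matched by symbol. Some listed genes are not reported here.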

Additional observations from a re-analysis of the deposited data

Results flagged for a closer look

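For CD24 and for MAL2, the log2 ratios of the gefitinib-selected lines and of the osimertinib-selected line had opposite signs. With 1 osimertinib-selected line the difference was not tested. Drug, EGFR mutation and cell line cannot be told apart here. The CD24 log2 ratio was 2.07 in HCC827 and 1.05 in PC9, and −3.43 in H1975. The MAL2 log2 ratio was −8.19 in HCC827 and −0.36 in PC9, and 0.30 in H1975, where 404 parental reads stood against 651. For MAL2 the PC9 and H1975 differences were both under 2-fold.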

How the results depend on the processing

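No log2 ratio of a member within a line changed sign under any alternative run, but the size depends on the CPM added: with 0.1 and 5 CPM in place of 1, MAL2 in HCC827 was at −10.24 and −6.08, RAB25 in HCC827 at −7.90 and −3.20, and EPCAM in H1975 at −5.57 and −2.53. Over the 3 lines edgeR called 0 genes and DESeq2 58. With no replicate block 0 genes were called (47 at an unadjusted p under 0.05), and leaving out each line gave 0 to 0 calls (540 to 584). Genes at least 2-fold in HCC827 numbered 1866, and 943 at a minimum of 50 CPM. In PC9 they numbered 410, and 268 with 5 CPM added, 729 at a minimum of 1 CPM or with no minimum, and 140 at 50 CPM, of which 47.9% were higher in place of 58.5%. In H1975 they numbered 495, and 884 at 1 CPM or with no minimum, and 187 at 50 CPM. Members at least 2-fold higher in PC9 went from 1 to 0 with 5 CPM added, and members at least 2-fold lower in H1975 from 6 to 1 at 50 CPM, where CD24 alone was counted. The minimum sets how many genes are counted; the cause of the other moves was not tested. With library-size scaling only, the HCC827 median over all genes was −0.11 in place of −0.01 (log2). Depth limits RAB25 in H1975 (10 and 1 reads) and the intron ratios most.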

Other observations

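Nearest genes with at least 10 CPM on either side of some members were read in the same libraries, with log2 ratios given for HCC827, PC9 and H1975. LAMTOR2 and MEX3A, 2.65 and 1.499 kb from RAB25, had −0.36, −0.05 and −0.04, and 0.63, −0.52 and 0.54. MPZL3, 1.05 kb from MPZL2 and of the same family, had −1.77, −0.14 and −0.06. KCNIP3, 5.996 kb from PROM2, went the other way in HCC827, with 3.31, 0.48 and −0.42. NFRKB, 3.63 kb from TMEM45B, had −0.02, −0.38 and 0.37. TNFRSF11B, the decoy receptor osteoprotegerin, 213 kb from MAL2, had −0.12, −1.34 and 3.33.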
